A study of Homo sapiens with 8 samples.

Results

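Carcinoma cells depleted of connexin 43 (Cx43) were compared with control cells while both were grown with astrocytes. The cells were MDA231-BrM2, a brain-metastatic line of human breast cancer derived from MDA-MB-231. Ribosome-bound RNA was read by translating ribosome affinity purification (TRAP), in which beads against GFP pull the tagged polysomes of the carcinoma cells out of the mixed lysate. The comparison used 6 of the 8 libraries: 2 of cells with a control hairpin, 2 of cells with Cx43 hairpin 1 and 2 of cells with Cx43 hairpin 2, all after 24 h with 1 astrocyte per carcinoma cell. All 6 libraries therefore share the tag, a hairpin and the astrocytes. The other 2 libraries, control cells grown alone, entered the fit of the spread between replicates and are given as reference levels. The design held no hairpin library grown alone, so an effect of the hairpins on the carcinoma cells by themselves and an effect on their response to astrocytes cannot be told apart. Of 57445 genes in the table, 15806 had a mean of at least 10 counts and were tested, and a change is called shared when it passed the test in the same direction with both hairpins.

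Cx43, encoded by GJA1, forms gap junctions, channels that join the cytoplasm of neighbouring cells and pass ions and small molecules. Between carcinoma cells and astrocytes, a known passenger is cGAMP, the messenger that the DNA sensor cGAS makes and that STING reads to switch on interferon and NF-kB signalling. Secreted type I interferon acts through IFNAR1 and IFNAR2, the kinases JAK1 and TYK2, and a complex of STAT factors with IRF9, which binds interferon response elements in the promoters of interferon-stimulated genes.

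GJA1 itself checked the labels. Its level, in CPM, the gene's count scaled to a common library size, was 65.9 and 64.7 in the control cocultures, 27.8 and 27.8 with hairpin 1 and 31.7 and 33.8 with hairpin 2. Every hairpin library lay below both control libraries, as it did for 18.1% of tested genes, while for 16.4% every one lay above. Ribosome-bound GJA1 RNA fell by 2.35-fold with hairpin 1 (log2 fold change -1.23, SE 0.074, edgeR adjusted p = 1.86e-05) and by 1.99-fold with hairpin 2 (log2 fold change -0.996, SE 0.073, adjusted p = 8.15e-05). Of the 7 connexins and pannexins tested, GJA1 was the only one called with both hairpins. GJA3, another connexin, passed with hairpin 1 alone at a log2 fold change of 0.39, beside 0.15 with hairpin 2, and PANX1, a pannexin channel, stood at 154 and 143 CPM in the control cocultures and at 136 and 154 and 139 and 146 with hairpins 1 and 2.

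Gene counts per library ran from 38219702 to 48997555. The share of alignments that were not unique was 26.1% in control coculture 1 and 16.8% in control coculture 2, and 18.5% to 21.5% in the hairpin libraries. The replicates are described as independent, without saying from which cultures, so p-values measure the spread between these libraries. Each hairpin was set against the same 2 control cocultures, so a deviation in those libraries enters both contrasts.

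Summed markers of 6 other cell types, and those of the carcinoma line itself, were lower in the hairpin libraries than in the control cocultures. In some lists, that of the carcinoma line among them, the groups overlapped once the most abundant member was left out. The species of the astrocytes is not given in the sources used here, so whether their RNA is counted in full by human genes is not known. Of 16 tested astrocyte markers CLU and VIM fell with both hairpins. The list of 25 summed to 2757 and 2712 CPM in the control cocultures and to 1866 to 2067 CPM in the hairpin libraries, most of it vimentin (VIM), which these mesenchymal carcinoma cells also make. In control cells grown alone, with no astrocytes, the same list summed to 2061 and 1867 CPM, so the sum is no measure of astrocyte RNA alone. Without VIM the sums were 583 to 617 CPM and 513 to 551 CPM. GFAP, the defining intermediate filament of astrocytes, was at 13.8 and 12.8 CPM in the control cocultures. It was at 16.5 and 16.9 CPM with hairpin 1, 11.7 and 12.2 CPM with hairpin 2 and 8.8 and 8.53 CPM in control cells grown alone. GFAP passed as a rise with hairpin 1 only (log2 fold change 0.33, edgeR adjusted p = 0.0397, beside -0.15 and 0.347 with hairpin 2). AQP4 and S100B had at most 7 counts in any library. Fibroblast markers, of which 1 of 14 tested fell (4 without either library of control cells alone), summed to 1036 and 959.7 CPM against 618.7 to 724 CPM, and to 1374 and 855.8 CPM in control cells alone. Microglia and macrophage markers summed to 321.3 and 346.6 CPM against 258.4 to 290.6 CPM, but without CD74, the most abundant, to 149 to 151 CPM against 133 to 154 CPM, which overlap. CD68 and CD74 fell among the 5 tested, and 4 of the 14 listed, AIF1, TYROBP, C1QA and C1QB, were at 0 in all 6 cocultures. Neuron markers summed to 31.49 and 30.4 CPM against 21.71 to 23.07 CPM (2 of 9 tested fell). Oligodendrocyte lineage markers summed to 360 and 325.5 CPM against 252.5 to 294.9 CPM (2 of 6). Endothelial markers summed to 313.3 and 319.4 CPM against 283.2 to 311 CPM (0 of 6). Markers of the carcinoma line summed to 5635 and 5487 CPM against 4537 to 5008 CPM (3 of 17). Of all tested genes 2.62% fell with both hairpins. The shares were 12.5% for astrocyte, 7.14% for fibroblast, 40.0% for microglia and macrophage and 22.2% for neuron markers. They were 33.3% for oligodendrocyte lineage, 0.0% for endothelial and 17.6% for carcinoma line markers. Lists this short can easily hold no call. Without VIM the carcinoma line sums were 3390 to 3460 CPM against 3190 to 3460 CPM, which overlap. Oligodendrocyte sums without CNP also overlapped, but those of neuron, endothelial and fibroblast markers without their most abundant member did not. Without hairpin 2 library 1 or 2 no astrocyte, fibroblast, microglia or oligodendrocyte marker was called, 1 neuron marker was, and 2 and 1 of the carcinoma line were. In control cells alone, with no astrocytes, neuron markers summed to 23.41 and 22.43 CPM and oligodendrocyte lineage markers to 263.4 and 245.3 CPM. Endothelial markers summed there to 289.2 and 285.7 CPM, microglia and macrophage markers to 212.9 and 209.6 CPM, and carcinoma line markers to 5239 and 4921 CPM. The sums of the other cell types therefore do not measure RNA of those cells alone. In these pull-downs fewer cells of a type, less RNA per cell and a change in the carcinoma cells' own RNA cannot be told apart. The part of these sums in the results that follow was not tested.

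Hairpin 1 changed 1236 genes, 7.82% of those tested, of which 748 (4.73%) were lower and 488 (3.09%) higher. Hairpin 2 changed 658 genes (4.16%), 506 lower (3.2%) and 152 higher (0.962%). Shared by both were 414 falls, 2.62% of tested genes, and 128 rises, 0.81%, and no gene was called in opposite directions. The falls reached much larger sizes. The mean of both hairpins against the controls was called for 9.22% of genes, 5.85% lower and 3.37% higher. Taking for each gene the smaller of its 2 fold changes, the median was 1.49-fold for shared falls and 1.298-fold for shared rises, and 105 falls (0.664%) but only 4 rises (0.0253%) were at least 2-fold with both hairpins. The counts depended on single libraries, which with 2 per group also set how well the spread is known. Leaving out 1 library at a time gave 281 to 2407 genes for hairpin 1, with the lowest count without control coculture 2 and the highest without hairpin 1 library 1, and 150 to 1097 for hairpin 2, with the lowest without its own library 2 and the highest without hairpin 1 library 2. Every single omission moved the count of hairpin 1 by over 1.5 times, and every one but those of control cells alone did so for hairpin 2. Shared falls came to 189 and 175 without control coculture 1 and 2, and to 141 and 135 without hairpin 2 library 1 and 2, and shared rises to 21, 16, 12 and 8 without the same 4 libraries. Without hairpin 1 library 1 there were 497 falls and 233 rises, and without either library of control cells alone 65 rises. In every one of the 8 omissions 118 of the 414 falls were still called, but only 5 of the 128 rises.

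**Figure D1:**
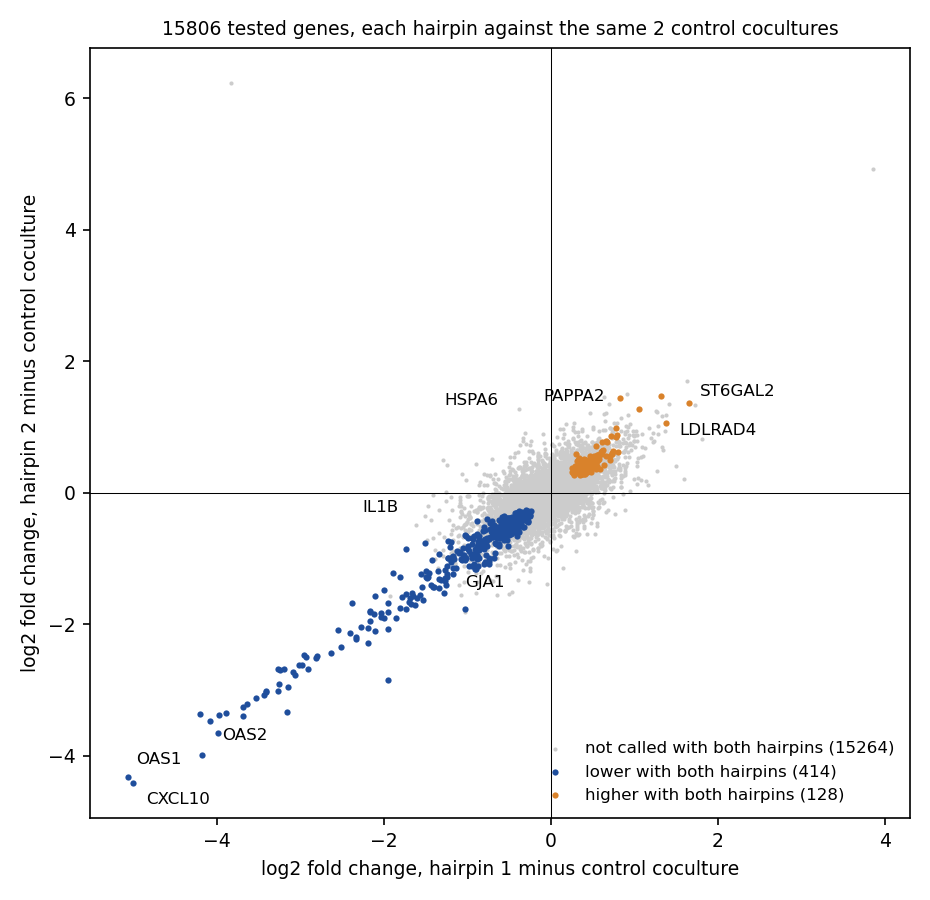
Log2 fold change of each of the 15806 tested genes with hairpin 1 (horizontal axis) and hairpin 2 (vertical axis), both against the same 2 control cocultures, which by itself ties the axes together. Blue points are the 414 shared falls, which extend below -4 on both axes, orange points the 128 shared rises, and grey points all other genes.

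Many of the deepest shared falls were genes of the interferon response, so the promoters of 7 interferon-linked genes that fell by at least 2-fold are shown, chosen after the motif search for the number and placing of their elements. All windows lie upstream of the RefSeq gene start on GRCh38.p14, are written in the direction of the gene, and carry in capitals each core of the interferon response element (GAAA, any 2 bases, GAAA) and each NF-kB site (GGGA, any 1 base, TTTCC), both searched on either strand.
CXCL10, chr4:76023689-76023738, minus strand: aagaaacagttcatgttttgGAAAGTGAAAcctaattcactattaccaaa
ISG15, chr1:1013364-1013419, plus strand: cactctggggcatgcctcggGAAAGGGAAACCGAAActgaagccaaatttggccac
IFIT1, chr10:89392487-89392549, plus strand: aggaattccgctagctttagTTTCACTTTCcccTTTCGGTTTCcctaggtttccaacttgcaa
IFI6, chr1:27672256-27672368, minus strand: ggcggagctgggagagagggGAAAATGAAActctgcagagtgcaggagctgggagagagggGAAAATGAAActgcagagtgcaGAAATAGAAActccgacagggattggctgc
OAS3, chr12:112938311-112938473, plus strand: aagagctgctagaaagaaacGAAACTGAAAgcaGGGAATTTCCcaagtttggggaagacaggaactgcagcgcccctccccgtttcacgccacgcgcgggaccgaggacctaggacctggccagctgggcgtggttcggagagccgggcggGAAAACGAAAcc
IFIH1, chr2:162318685-162318863, minus strand: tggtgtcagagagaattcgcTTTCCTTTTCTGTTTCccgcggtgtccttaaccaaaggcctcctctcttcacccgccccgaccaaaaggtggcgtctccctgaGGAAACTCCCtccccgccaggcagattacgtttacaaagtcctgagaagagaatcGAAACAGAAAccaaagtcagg
TAP1, chr6:32853747-32853858, minus strand: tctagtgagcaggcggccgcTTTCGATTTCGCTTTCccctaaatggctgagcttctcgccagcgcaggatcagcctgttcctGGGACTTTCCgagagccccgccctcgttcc
In ISG15, IFIH1 and TAP1 a pair of cores overlaps, sharing the middle GAAA (TTTC on the other strand).

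The same core was then counted in the 250 bases upstream of every matched gene. A RefSeq promoter was matched for 11542 tested genes, and 268 of them (2.32%) held the core. Of the 318 matched shared falls 50 did (15.7%), and of the 77 matched falls of at least 2-fold 35 did (45.5%), against 15 of 241 smaller falls (6.22%) and 0 of 103 matched rises. The NF-kB letters were in 67 of all matched promoters (0.58%) and in 7 of the 318 falls (2.2%). They were in 5 of the 77 larger falls (6.49%), 2 of the 241 smaller falls (0.83%) and 0 of the 103 rises. Sterol response element letters (TCAC, any 1 base, CCAC) were in 100 promoters (0.866%), 2 of the 318 falls (0.629%) and 3 of the 103 rises (2.91%). Amino acid response element letters (TGATG, any 1 base, AAT) were in 51 (0.442%), 1 of the 318 falls (0.314%) and 2 of the 103 rises (1.94%). Neither set of letters was in a matched promoter of the 6 falling cholesterol genes or the 8 rising ATF4-linked genes described further on. With shares of 0.866% and 0.442% over all matched promoters, sets this small would seldom hold a match, so no conclusion is drawn. Because 318 of 414 falls is under the 80% needed to speak for the set, these shares describe the matched promoters only, and a match is a run of letters, not a bound site. IFIH1 and GCA, a calcium-binding protein gene, start back to back within this stretch of chromosome 2, and both fell: GCA stood at 9.98 and 10.98 CPM in the control cocultures, 6.99 and 5.12 CPM with hairpin 1 and 6.58 and 6.23 CPM with hairpin 2. The call for IFIH1 was kept in every omission, and that for GCA was lost in each but that of hairpin 1 library 1.

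Interferon ligands could not be tested. None of the 10 interferon ligand genes in the table reached the count minimum: IFNB1 had at most 1 count in any library and IFNE at most 9. Receptors and kinases held no shared call among 9 tested genes (1 rise, IFNAR1, without hairpin 1 library 1). With hairpin 1, 1 of the 9 was called lower and 1, IFNAR1, higher, and with hairpin 2 none was called. IFNAR1 was at 71.5 and 68.3 CPM in the control cocultures, 86.1 and 89.7 CPM with hairpin 1 and 82.2 and 88.9 CPM with hairpin 2, higher in every hairpin library, with a log2 fold change of 0.33 (SE 0.068, adjusted p = 0.0256) for hairpin 1 and 0.29 (SE 0.068, adjusted p = 0.052) for hairpin 2. JAK2, a kinase of the interferon gamma receptor, did not pass with either hairpin (-0.17 and -0.22). Over all tested genes 2.62% fell and 0.81% rose with both hairpins, so a list of 9 genes can easily hold no shared call.

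Of 13 STAT and IRF factors, 6 fell with both hairpins, among them STAT2, IRF1, IRF2, IRF7 and IRF9. STAT2, a signal carrier of the type I interferon receptor, went from 32.7 and 32.1 CPM in the control cocultures to 11.9 and 13.6 CPM and 13.6 and 12.5 CPM. IRF9, the DNA-binding member of the complex, was scarce, at 2.57 and 2.98 CPM against 0.902 and 1.28 CPM and 1.23 and 1.21 CPM, and it lost its call without either control coculture or either hairpin 2 library. IRF7, which amplifies interferon production, went from 101 and 99.1 CPM to 16.9 and 18.3 CPM and 20.4 and 18.8 CPM, a fall of 5.69-fold and 5.10-fold. Outside these 6, IRF3, which STING activates, had log2 fold changes of -0.26 and -0.29 and passed with neither hairpin (adjusted p = 0.0571 and 0.0595), and STAT3 had -0.11 and -0.08.

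Sensors of foreign or misplaced nucleic acid split in the same way. Of 17 tested, 9 fell with both hairpins, and the count was 9 whichever library was left out. The RNA helicase DDX58 (RIG-I) went from 94.98 and 94.7 CPM in the control cocultures to 17.7 and 18.2 CPM and 21.02 and 21.99 CPM with hairpins 1 and 2, and IFIH1 (MDA5) from 30.1 and 28.6 CPM to 4.03 and 3.77 CPM and 4.22 and 4.89 CPM. AIM2 and IFI16, which bind DNA, fell by 4.101-fold and 2.23-fold with hairpin 1 and by 3.57-fold and 2.02-fold with hairpin 2. TREX1, the exonuclease that clears cytosolic DNA, went from 16.7 and 18.1 CPM to 7.73 and 6.93 CPM and 7.498 and 7.32 CPM. The genes of the cGAMP route itself were not called. MB21D1 (cGAS) stood at 26.6 and 28.2 CPM in the control cocultures, 25.2 and 26.2 CPM with hairpin 1 and 27.1 and 25.7 CPM with hairpin 2. TMEM173 (STING) had log2 fold changes of -0.30 (SE 0.081, adjusted p = 0.0604) and -0.20 (SE 0.081, adjusted p = 0.214), and its kinase TBK1 0.26 and 0.18 (adjusted p = 0.0556 and 0.203). Of the 10 tested genes that export, import or break down cGAMP, none was called with both hairpins. Over all tested genes only 2.62% fell and 0.81% rose with both, so a list this short can easily hold none. LRRC8B and LRRC8C, subunits of a volume-regulated channel that can carry cGAMP, passed as rises with hairpin 1 alone (0.37 and 0.40, beside 0.23 and 0.22 with hairpin 2).

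Among feedback brakes, 2 of 17 fell and 1 rose. USP18, which strips ISG15 from proteins and blocks the receptor, went from 37.2 and 37.97 CPM to 3.38 and 3.55 CPM with hairpin 1 and 4.24 and 4.66 CPM with hairpin 2. SOCS1 fell less, by 1.63-fold and 1.34-fold, while SOCS4 rose by 1.404-fold and 1.301-fold. The calls for SOCS1 and SOCS4 were lost without either control coculture or either hairpin 2 library, and that for USP18 was kept.

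Antiviral effectors fell almost as a whole list. Of 30 tested, 29 fell with both hairpins, with median log2 fold changes of -3.05 and -2.65 beside -0.009 and -0.003 over all tested genes, and 26 to 29 stayed called with 1 library left out. OAS1, a double-stranded RNA sensor, was at 68.3 and 72.9 CPM in the control cocultures, 2.36 and 1.83 CPM with hairpin 1, 3.59 and 3.46 CPM with hairpin 2 and 0.633 and 0.707 CPM in control cells alone. It fell by 33.5-fold with hairpin 1 (log2 fold change -5.07, SE 0.11, adjusted p = 5.55e-08) and by 20.02-fold with hairpin 2 (-4.32, SE 0.11, adjusted p = 1.23e-07). MX1, a GTPase that traps viral nucleocapsids, went from 159 and 149 CPM to 10.2 and 9.15 CPM and 11.7 and 12.7 CPM. IFIT1, which binds viral RNA that lacks a mature cap, went from 268 and 291 CPM to 19.4 and 16.01 CPM and 28.02 and 25.8 CPM. The membrane and release blockers were smaller movers, with IFITM3 falling by 2.35-fold and 2.002-fold and tetherin (BST2) by 2.78-fold and 2.42-fold. IFITM2 and ZC3HAV1 were at the weak end, with 1.75-fold and 1.59-fold for hairpin 1 and 1.505-fold and 1.505-fold for hairpin 2.

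The other branches of the response fell with them. All 7 tested genes of ISG15 conjugation fell, among them ISG15, the ubiquitin-like protein (593 and 759.7 CPM in the control cocultures against 58.8 and 49.5 CPM and 78.9 and 66.7 CPM), UBE2L6, its conjugating enzyme (211 and 237 CPM against 74.1 and 67.04 CPM and 77.2 and 78.3 CPM), and HERC5, its ligase (40.1 and 40.2 CPM against 10.6 and 11.6 CPM and 10.3 and 10.96 CPM). With 1 library left out 5 to 7 stayed called. All 5 tested guanylate-binding proteins and all 4 tested apolipoproteins L fell, in every omission. GBP5 was barely present outside the control cocultures, at 4.99 and 3.84 CPM there, 0.347 and 0.4104 CPM with hairpin 1 and 0.482 and 0.523 CPM with hairpin 2. Of 14 TRIM, SP and PML genes 10 fell. TRIM21, an intracellular antibody receptor, fell by 3.33-fold and 2.92-fold, and SP100, a nuclear body protein, by 2.06-fold and 1.94-fold. Of 7 interferon-linked PARP genes 6 fell, and TIPARP, better known as a target of the aryl hydrocarbon receptor, had log2 fold changes of 0.09 and 0.08. APOBEC3C, APOBEC3F and APOBEC3G, cytidine deaminases, were called of 5 APOBEC3 genes tested, but none of the 3 was without either control coculture or either hairpin 2 library.

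These 10 lists, from STAT and IRF factors to apolipoproteins L, held 116 of all tested genes (0.734%), 78 of the 414 shared falls (18.8%), 63 of the 105 falls of at least 2-fold and 67 of the 118 falls that every omission kept. They held 1 of the 128 rises, SOCS4. The lists were drawn up knowing that interferon genes fall here, so these shares describe the falls and do not test them.

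**Figure D2:**
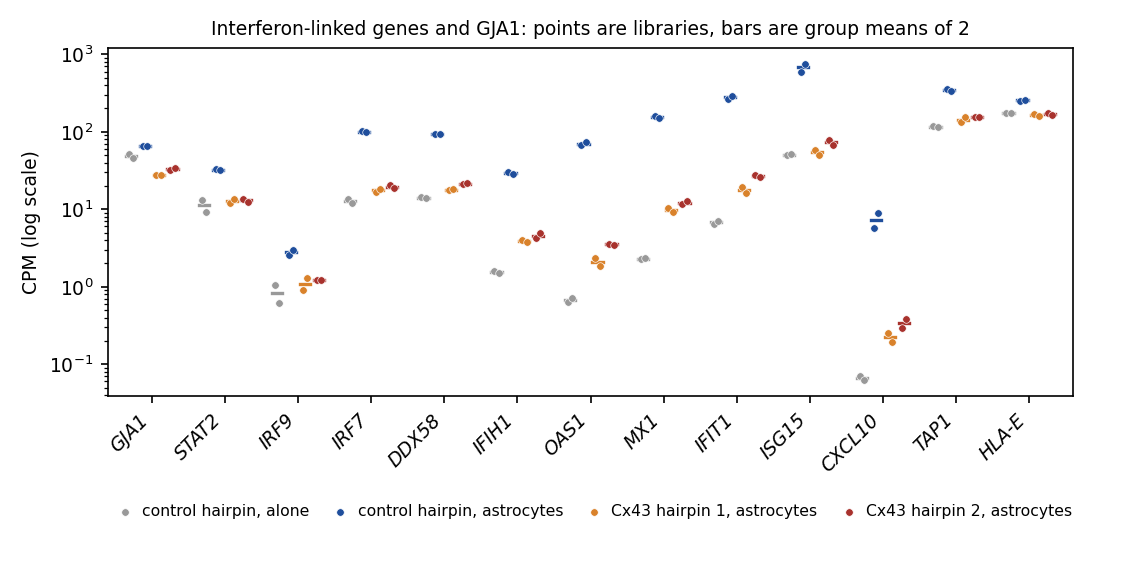
Levels in CPM on a log scale of GJA1 and 12 interferon-linked genes in each of the 8 libraries (points) with the mean of each group of 2 (bars). For each gene shown the 4 hairpin libraries lie below both control cocultures, as for IRF7 at 16.9 to 20.4 CPM against 99.1 and 101 CPM and GJA1 at 27.8 to 33.8 CPM against 64.7 and 65.9 CPM.

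Antigen presentation genes were called in part. All 16 tested genes of MHC class I and peptide loading had negative log2 fold changes with both hairpins. So did all 11 immunoproteasome genes, beside 6321 of all 15806 tested genes. Of 16 tested genes of MHC class I and peptide loading, 6 fell with both hairpins, but 3 did without control coculture 2 and 2 without either hairpin 2 library. The peptide transporter TAP1 was at 356 and 341 CPM in the control cocultures, 135 and 153 CPM with hairpin 1 and 156 and 154 CPM with hairpin 2, a fall of 2.42-fold and 2.25-fold. HLA-E, a ligand of natural killer cell receptors, fell by 1.54-fold and 1.497-fold in the same way. B2M, the light chain of MHC class I, had log2 fold changes of -0.38 and -0.29 (SE 0.145 for each). It passed with neither hairpin (edgeR adjusted p = 0.14 and 0.31). TAP2, the partner of TAP1 in the transporter, passed with neither hairpin, with log2 fold changes of -0.16 (SE 0.068) and -0.23 (SE 0.068). Of 11 immunoproteasome genes 3 fell, 1 without control coculture 2 or either hairpin 2 library. PSMB8 and PSMB9, the inducible catalytic subunits, fell by 1.84-fold and 1.91-fold with hairpin 1 and by 1.56-fold and 1.63-fold with hairpin 2.

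Chemokines and cytokines showed falls of very different depth. Of 15 chemokines 5 fell with both hairpins: CXCL10, CXCL11, CX3CL1, IL8 and CCL20. CXCL10, which draws T cells through CXCR3, was at 5.76 and 8.83 CPM in the control cocultures, 0.254 and 0.193 CPM with hairpin 1 and 0.289 and 0.387 CPM with hairpin 2, in control cells alone 0.0704 and 0.0624 CPM. Its fall of 32.1-fold and 21.3-fold was, by the smaller of the 2 changes, the largest of the shared falls. The sizes rest on few counts in the hairpin libraries, with SE of 0.306 and 0.284 on the log2 scale. In control cells alone the levels equal 3 counts per library. OAS1 was close, at 33.5-fold and 20.02-fold. IL8, a neutrophil attractant and NF-kB target, went from 101 and 123 CPM to 55.05 and 42.7 CPM and 68.5 and 65.3 CPM, 2.29-fold and 1.67-fold. CCL2, a monocyte attractant, overlapped between groups, at 18.1 and 21.9 CPM against 20.1 and 14.3 CPM and 19.2 and 17.4 CPM. The chemokine count was 3 without control coculture 2 or either hairpin 2 library.

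Of 19 cytokines and colony-stimulating factors 8 fell, 5 without control coculture 2, and 5 and 4 without hairpin 2 library 1 and 2. TNFSF10 (TRAIL), a death ligand, went from 15.6 and 17.4 CPM to 2.22 and 1.497 CPM and 2.05 and 2.18 CPM, and IL24 from 59.4 and 70.8 CPM to 20.4 and 16.7 CPM and 26.4 and 27.1 CPM. For IL24 every hairpin library lay below the 32.8 and 35.8 CPM of control cells alone. IL1A, an alarm cytokine, went from 16.7 and 16.7 CPM to 8.21 and 7.05 CPM and 8.99 and 8.94 CPM. Each of these 3 calls was kept in every omission. CSF3, the granulocyte factor, fell by 3.32-fold with hairpin 1 and 1.81-fold with hairpin 2, and the difference between hairpins was not called. VCAM1, an adhesion receptor for leukocytes, was the only adhesion receptor of 12 called with both hairpins (3 were without hairpin 1 library 1 and 2 without hairpin 1 library 2), from 11.8 and 12.7 CPM to 1.57 and 1.33 CPM and 1.69 and 1.89 CPM.

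Of 24 tested NF-kB subunits and regulators, 2 fell with both hairpins, BIRC3 and NFKBIZ (8.33%, beside 2.62% of all tested genes). Neither was called without a control coculture or a hairpin 2 library. Taking each hairpin by itself, 5 of the 24 were lower with hairpin 1 and 3 with hairpin 2, beside 4.73% and 3.2% of all tested genes. BIRC3, an inhibitor of cell death, was at 443 and 449 CPM in the control cocultures, 313 and 311 CPM with hairpin 1 and 331 and 337 CPM with hairpin 2. NFKBIA, the feedback inhibitor, passed with hairpin 1 (-0.60, adjusted p = 0.00525) and not with hairpin 2 (-0.30, adjusted p = 0.0896). NFKB1, a subunit, had 0.11 and 0.05.

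**Figure D3:**
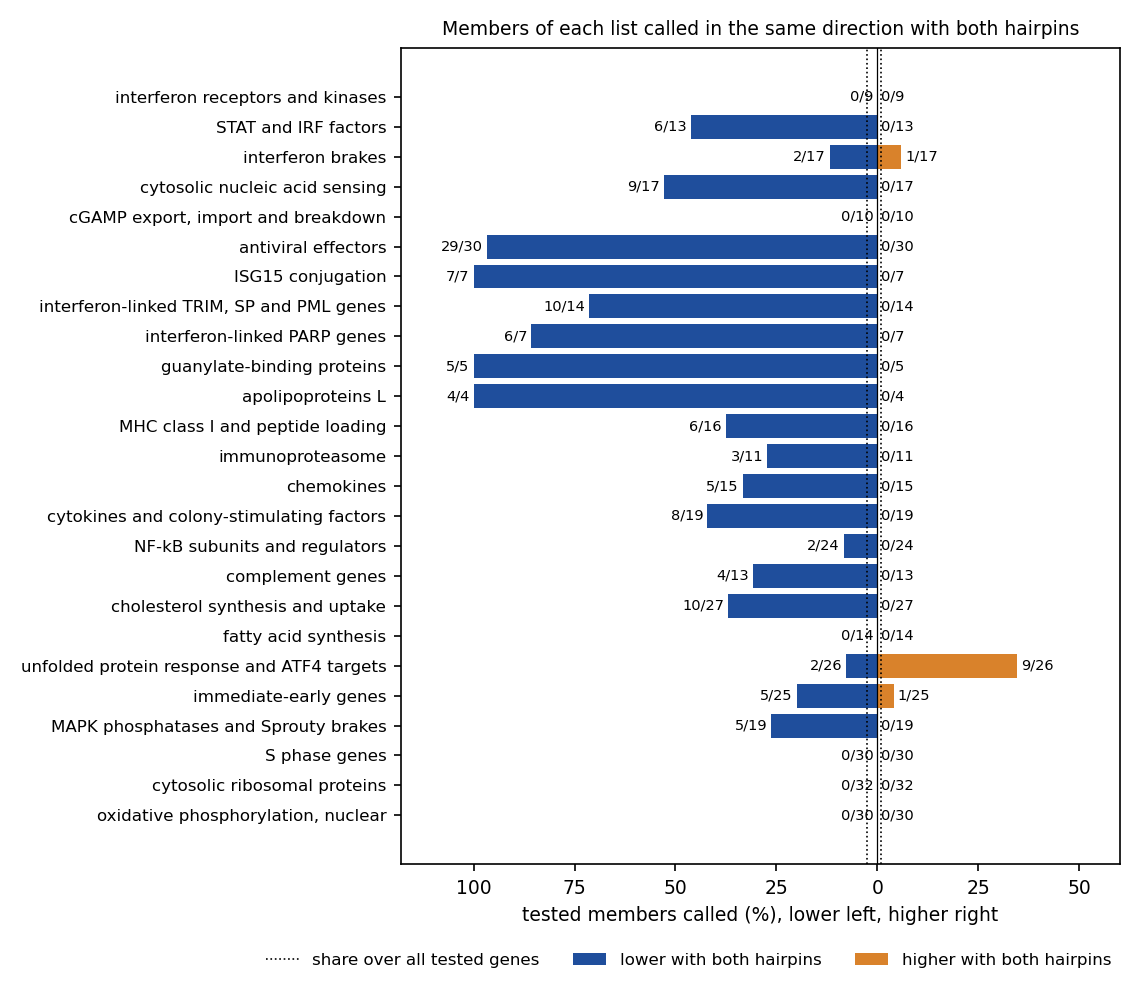
Share of each list's tested members called lower (left, blue) or higher (right, orange) with both hairpins, with the counts printed at the bar ends. Dotted lines mark the shares over all tested genes, 2.62% lower and 0.81% higher, and antiviral effectors reach 29 of 30 lower while the list of the unfolded protein response and ATF4 targets reaches 9 of 26 higher.

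Outside immunity, genes of cholesterol supply fell together by small amounts. Over all tested genes 2.62% fell and 0.81% rose with both hairpins. Of 27 tested genes of cholesterol synthesis and uptake 10 fell with both hairpins and none rose, with median log2 fold changes of -0.28 for each hairpin. The count was 5 without either control coculture and 3 and 4 without hairpin 2 library 1 and 2. INSIG1, which holds the sterol-sensing factor SREBP in the endoplasmic reticulum and is itself an SREBP target, went from 239 and 239 CPM to 128 and 130.3 CPM with hairpin 1 and 124 and 123 CPM with hairpin 2. It fell by 1.85-fold (adjusted p = 3.66e-05) and 1.94-fold (adjusted p = 2.54e-05). MSMO1, an enzyme of late sterol synthesis, went from 51.7 and 51.8 CPM to 34.1 and 33.4 CPM and 34.8 and 32.5 CPM. Both calls were kept in every omission, and in both the hairpin libraries also lay below control cells alone (138 and 141 CPM and 37.1 and 37.04 CPM). The regulator SREBF2 passed with neither hairpin (-0.19 and -0.24), and none of 14 fatty acid synthesis genes was called with both (1 fall without hairpin 1 library 1).

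The stress genes of the endoplasmic reticulum and of amino acid shortage moved in opposite directions. Of 26 tested, 9 rose with both hairpins and 2 fell. The 2 falls were chaperones: HSPA5 (BiP) went from 291 and 304 CPM to 182 and 170.3 CPM and 184 and 182 CPM, a fall of 1.69-fold and 1.63-fold kept in every omission, and HSP90B1 fell by 1.33-fold and 1.27-fold, a call lost without any one of 6 libraries, the controls alone, the control cocultures and those of hairpin 2. The rises were mostly targets of ATF4, the factor that turns on amino acid supply when translation is restrained. TRIB3, a pseudokinase, went from 99.3 and 98.2 CPM to 156 and 158 CPM and 172 and 164 CPM, a rise of 1.59-fold (log2 fold change 0.67, SE 0.061, adjusted p = 0.000351) and 1.702-fold (0.77, SE 0.062, adjusted p = 0.000143). CHAC1, which degrades glutathione, went from 30.2 and 32.6 CPM to 48.1 and 42.95 CPM and 54.4 and 48.5 CPM. ASNS, asparagine synthetase, went from 47.9 and 48.1 CPM to 64.6 and 56.9 CPM and 69.9 and 68.9 CPM, and PSAT1, an enzyme of serine synthesis, from 111 and 118 CPM to means of 159 ± 13.2 CPM and 165 ± 2.02 CPM (SD, n = 2). In control cells without astrocytes these 4 genes lay between the 2 cocultured conditions, at 121 and 117 CPM, 39.4 and 40.99 CPM, 63.3 and 62.0 CPM and 144 and 149 CPM in turn, save that ASNS with hairpin 1 reached both sides of that level.

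The rising group was not uniform. ATF4 itself had log2 fold changes of -0.02 and 0.09 (SE 0.12 for each), and DDIT3 (CHOP), the death factor of the pathway, 0.04 and 0.30 (SE 0.2 for each), with overlapping libraries. PHGDH, the first enzyme of serine synthesis, had -0.27 and -0.14 and passed with neither hairpin. Of the 9 rises 4 were called without control coculture 1, and 2 and 4 without hairpin 2 library 1 and 2. TRIB3 was the only one of the 9 kept in every omission. Beyond the list and chosen after their values were seen, MTHFD2 and PYCR1, of mitochondrial one-carbon and proline metabolism, rose by 1.28-fold and 1.19-fold with hairpin 1 and by 1.203-fold and 1.25-fold with hairpin 2. Both were just inside the threshold for 1 hairpin, and MTHFD2 was the rise closest to it, at an adjusted p of 0.049961. Neither call was kept in every omission.

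**Figure D4:**
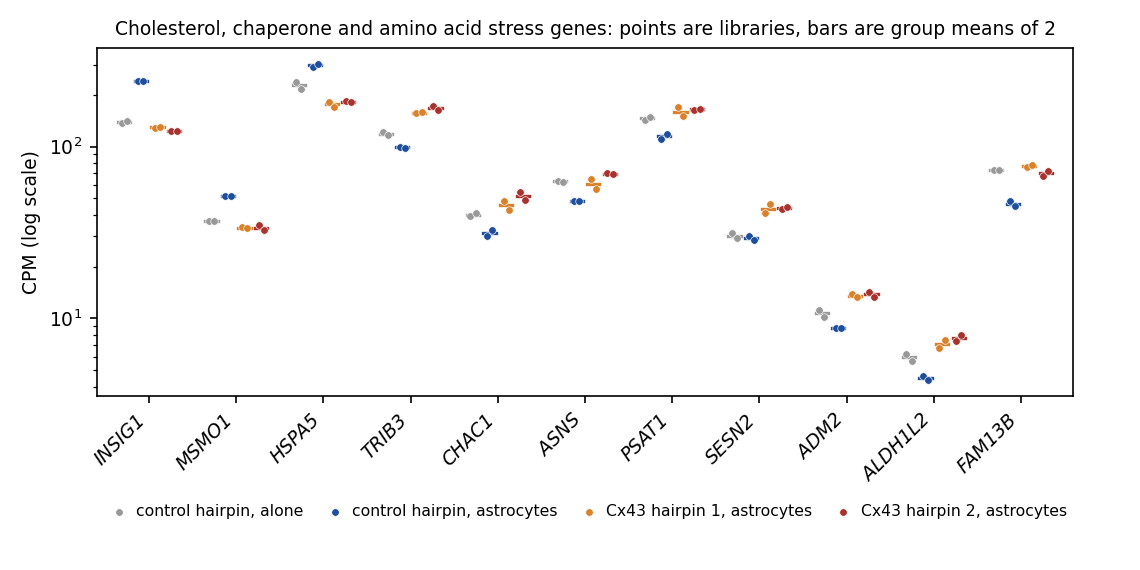
Levels in CPM on a log scale of 3 falling genes of cholesterol supply and protein folding and 8 rising genes in each of the 8 libraries (points), with group means of 2 (bars). INSIG1 to HSPA5 are lower in all 4 hairpin libraries than in both control cocultures, and TRIB3 to FAM13B higher, as for TRIB3 at 156 to 172 CPM against 98.2 and 99.3 CPM.

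Several of the 15 largest rises lay outside these lists or in small ones. ST6GAL2 and ST6GALNAC3, sialyltransferases, were the 2 of 18 tested enzymes of that family called with both hairpins. ST6GAL2 went from 0.5399 and 0.5904 CPM to 1.596 and 1.98 CPM and 1.398 and 1.52 CPM, 3.15-fold and 2.58-fold, and lost its call without either control coculture or either hairpin 2 library. ST6GALNAC3 went from 5.502 and 4.96 CPM to 8.81 and 9.198 CPM and 10.3 and 10.4 CPM, 1.72-fold and 1.98-fold. PAPPA2, a protease that cleaves IGF-binding proteins, went from 1.77 and 2.01 CPM to 3.89 and 3.98 CPM and 4.44 and 4.66 CPM. FAM13B went from 48.0 and 44.9 CPM to 75.8 and 78.6 CPM and 67.8 and 72.3 CPM, levels around the 73.1 and 72.98 CPM of control cells alone. With TRIB3 and ZNF770, a zinc finger gene, ST6GALNAC3, PAPPA2 and FAM13B made up the 5 rises that every omission kept. LDLRAD4, which dampens TGF-beta signalling, rose by 2.61-fold and 2.09-fold but was lost without either hairpin 2 library. SESN2 and SESN3, sestrins that sense amino acids and restrain mTORC1, rose by 1.49-fold and 1.67-fold with hairpin 1 and by 1.49-fold and 1.51-fold with hairpin 2, both lost without either hairpin 2 library and SESN3 also without either control coculture.

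Growth factor signalling genes fell in small groups. Of 19 MAPK phosphatases and Sprouty brakes 5 fell with both hairpins, 3 and 2 without control coculture 1 and 2, and 2 without either hairpin 2 library. DUSP5, a nuclear phosphatase of ERK, went from 588 and 547 CPM to 319.8 and 341 CPM and 294 and 293 CPM, below the 506 and 496 CPM of control cells alone, and DUSP1 from 205 and 213 CPM to 111 and 107 CPM and 124 and 118 CPM. These 2 kept their calls throughout. EREG, an EGFR ligand, fell by 2.12-fold and 1.88-fold, also throughout. Of 25 immediate-early genes 5 fell, and KLF4 rose, a call lost without any one of 5 libraries. MYC went from 326 and 329 CPM to 255 and 258 CPM and 252 and 251 CPM and EGR1 from 72.1 and 66.02 CPM to 48.97 and 56.4 CPM and 49.3 and 48.3 CPM. Without control coculture 1 only 1 of these 5 falls was called, without control coculture 2 none, and without hairpin 2 library 1 and 2 1 and 0.

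Single genes from other lists stood out by holding in every omission. NR1D1 (REV-ERB alpha), a repressor of the circadian clock, went from 47.98 and 44.7 CPM to 14.97 and 15.5 CPM and 15.6 and 15.1 CPM, 3.04-fold and 3.02-fold, while 15 of 17 clock genes were not called with both hairpins and BHLHE40, the other one called, lost its call without control coculture 1 or either hairpin 2 library. C1S, a protease of the complement cascade, went from 3.702 and 4.27 CPM to 1.02 and 0.821 CPM and 1.398 and 1.27 CPM. It was 1 of 4 complement genes of 13 to fall. Of them 1 was called without either control coculture or hairpin 2 library 2, and 2 without hairpin 2 library 1. TXNIP, which binds thioredoxin and curbs glucose uptake, went from 257 and 250.2 CPM to 135 and 127 CPM and 132 and 134 CPM, and KRT19, an epithelial keratin, from 70.2 and 71.8 CPM to 41.1 and 39.2 CPM and 40.8 and 38.96 CPM. In both, the hairpin libraries lay below control cells alone as well (167 and 164 CPM and 67.3 and 69.5 CPM).

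Other lists held no shared call, beside 2.62% falls and 0.81% rises over all tested genes. None of 30 S phase genes, 32 cytosolic ribosomal proteins, 30 nuclear genes of oxidative phosphorylation, 24 lysosome genes, 24 collagens, 19 integrins or 13 genes of the sphingosine 1-phosphate pathway was called with both hairpins, although 1 or 2 members of the oxidative phosphorylation, lysosome, collagen and integrin lists were as falls in single omissions. By hairpin 1 alone 5 ribosomal proteins and 5 lysosome genes were lower, and the median log2 fold change of ribosomal proteins was -0.39 with hairpin 1 and -0.10 with hairpin 2. VIM fell by 1.43-fold and 1.56-fold and GAPDH, a glycolytic enzyme often used as a reference, by 1.399-fold and 1.31-fold. Both were lost without control coculture 1 or either hairpin 2 library, and GAPDH also without control coculture 2.

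The hairpins were also compared with each other, a contrast whose fold changes use no control library. In all, 5 genes were called (0.0316%), 4 higher with hairpin 2 (0.0253%), OAS2, IL1B, RPN1 and HSPA6, and 1 lower (0.00633%). RPN1, a subunit of the glycosylation complex, was at 217 and 219.9 CPM in the control cocultures, 143 and 137 CPM with hairpin 1 and a mean of 200.6 ± 0.872 CPM (SD, n = 2) with hairpin 2, and was called lower with hairpin 1 alone. IL1B, an inflammatory cytokine, was at 18.4 and 19.5 CPM in the control cocultures, 6.94 and 6.37 CPM with hairpin 1 and 15.4 and 14.2 CPM with hairpin 2, and the log2 difference between hairpins was 1.15 (SE 0.094, adjusted p = 0.00678). OAS2 fell deeply with both, 17.0-fold and 11.2-fold, and differed between them by 0.61 (SE 0.065, adjusted p = 0.04). Of the 694 genes (4.39%) called with hairpin 1 only, 2 were called to differ between hairpins, and of the 116 (0.734%) called with hairpin 2 only, 2. The count was 2 without any one of the 4 control libraries, 3 without either hairpin 1 library, and 0 and 1 without hairpin 2 library 1 and 2. GJA1 was lower with hairpin 1 than with hairpin 2 in all 4 libraries, but that difference was not called (0.24, SE 0.074, adjusted p = 0.705).

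**Figure D5:**
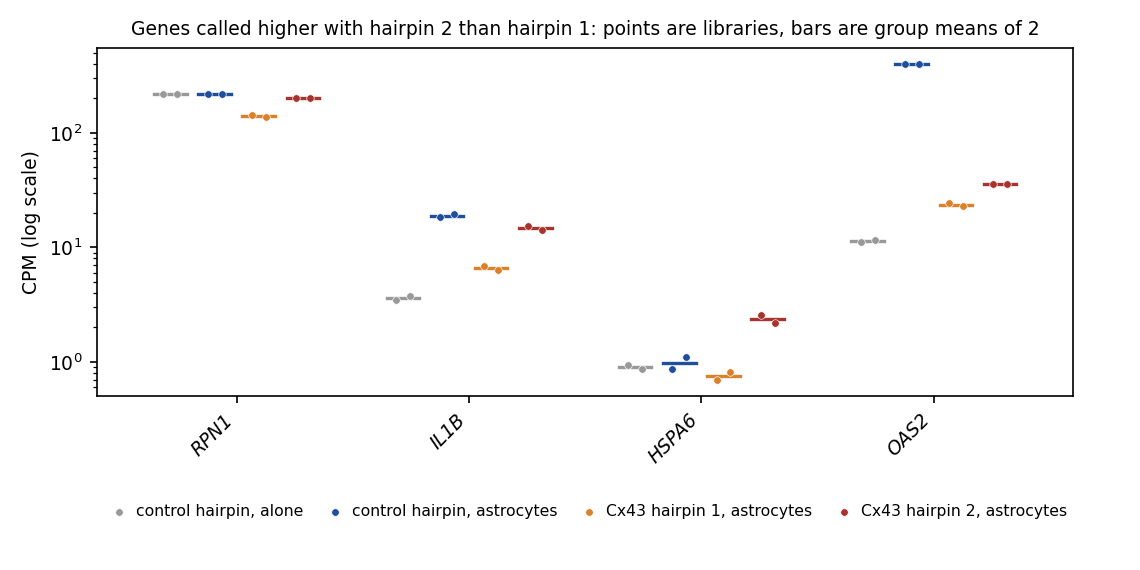
Levels in CPM on a log scale of OAS2, IL1B, RPN1 and HSPA6, called higher with hairpin 2 than with hairpin 1, in each of the 8 libraries (points), with group means of 2 (bars). IL1B with hairpin 2 lies between hairpin 1 and the control cocultures.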

How the data were processed

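The deposited table gives read counts per gene in 8 libraries. The authors' name for it calls them normalized, but they were taken as raw counts because they are whole numbers with different totals per library. TopHat2, HTSeq, DESeq2 and the build hg19 are named, with no versions or roles, per the submitters' processing notes; which annotation was used, and whether counting used strand, is not given in the sources used here, so overlapping, antisense and near-identical genes are uncertain. Rows that name no gene, 27.1% to 37.4% of all reads listed, were left out of library sizes.

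Genes with a mean of at least 10 counts were tested with edgeR 4.0.16 (limma 3.58.1, R 4.3.3): TMM scaling, quasi-likelihood test, 4 groups of 2 libraries sharing 1 estimate of the spread, Benjamini-Hochberg adjustment over all 15806 genes and a threshold of 0.05. CPM were computed here from counts and TMM-scaled library sizes. Standard errors are the log2 fold change divided by the root of F. With 2 libraries per group an exact permutation test cannot pass the threshold and was not used. The procedure was tested on simulated counts. Alternatives were DESeq2 1.42.0, its size factors, no filter, the 6 cocultures alone, a replicate block and each library left out.

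The members and gene lists were chosen with earlier results of these data known. Named genes were drawn from GJA1, the genes called between hairpins and the 15 largest shared falls and rises by the smaller change. Those falls and rises had at least 50 counts in a compared group and no overlap of groups. Also eligible were up to 6 members of each list with the smallest p, and tested members of the interferon upstream, sensing, cGAMP and connexin lists. Not every eligible gene is named. Named outside this rule, after their values were seen, were ASNS, ATF4, B2M, BST2, BTN3A1, BTN3A2, BTN3A3, CCL2, CHAC1, CSF2, CTD-2328D6.1, DDIT3, GCA, HSP90B1, IFIT5, IFITM2, IFITM3, MTHFD2, NFKB1, PDLIM4, PHGDH, PPM1K, PYCR1, RGS2, SREBF2, TAP2, TIPARP, TRIM21, TXNIP and ZNF770. Some called genes are not reported here by name. Promoters come from RefSeq (GRCh38.p14), matched by symbol for 11542 tested genes, and no coordinate of the counts' own build was used.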

Additional observations from a re-analysis of the deposited data

Results flagged for a closer look

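The difference between the hairpins, tested by edgeR with Benjamini-Hochberg adjustment in the fit over all 8 libraries, was past the threshold for 5 genes, of which 4 are described. IL1B differed by 1.15 (SE 0.094, adjusted p = 0.00678). It kept its call when any one control or hairpin 1 library was left out and lost it without hairpin 2 library 1 and 2, at an adjusted p of 0.188 and 0.0668. HSPA6, an inducible HSP70 gene, differed by 1.66 (SE 0.19, adjusted p = 0.0461) at levels of 0.694 and 0.821 CPM under hairpin 1 and 2.58 and 2.21 CPM under hairpin 2. OAS2 differed by 0.61 (SE 0.065, adjusted p = 0.04) and RPN1 by 0.52 (SE 0.06, adjusted p = 0.0461). HSPA6, OAS2 and RPN1 lost their call without any one of the 8 libraries.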

How the results depend on the processing

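Main counts were 1236 genes for hairpin 1, 658 for hairpin 2, 414 shared falls, 128 shared rises and 5 genes between hairpins. Without a filter on low counts they were 2269, 1191, 608, 266 and 304, and with the 6 cocultures alone 762, 449, 310, 64 and 2. DESeq2 gave 1392, 743, 436, 152 and 22, and its size factors in edgeR 1257, 660, 411, 135 and 5. A change of at least 2-fold with both hairpins left 105 falls and 4 rises, and the mean of both hairpins against the control cocultures gave 924 and 533. Leaving out 1 library gave 281 to 2407, 150 to 1097, 135 to 497, 8 to 233 and 0 to 3. The labels do not say that replicate numbers pair the libraries, and deviations of same-numbered libraries had mixed signs: they correlated at -0.385 and -0.116 between control cocultures and hairpins 1 and 2, at 0.199, -0.268 and -0.0478 between control cells alone and control cocultures, hairpin 1 and hairpin 2, and at 0.135 between the hairpins. With the replicate block the counts were 446, 319, 226, 32 and 0, and with the crossed replicate block, chosen after seeing the data, 3895, 2329, 1049, 698 and 361. The cause of these differences was not tested. GJA1 kept its direction and its call with both hairpins in each of these fits. Among the named genes, directions that turned belonged to genes not called. Over the omissions of 1 library the log2 fold change with hairpin 1 spanned ATF4 -0.23 to 0.17, CCL2 -0.48 to 0.0089, CTD-2328D6.1 -0.32 to 4.82, DDIT3 -0.30 to 0.31, JAK1 -0.12 to 0.16, PANX1 -0.13 to 0.055 and TYK2 -0.18 to 0.12, and with hairpin 2 CCL2 -0.26 to 0.033, IFNAR2 -0.0027 to 0.13, MB21D1 -0.097 to 0.0016, NFKB1 -0.0070 to 0.10 and TYK2 -0.14 to 0.019. With 2 libraries per group and 1 left out, the lone library is assumed to vary like the other groups.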

Other observations

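Some patterns outside the lists were seen in the values first and are given as descriptions. Of 511 tested genes with symbols starting ZNF or ZFP, zinc finger genes, 11 rose with both hairpins (2.15%, beside 0.81% of all tested genes) and 3 fell, with median log2 fold changes of 0.13 with hairpin 1 and 0.09 with hairpin 2. Of 6 butyrophilin genes of the BTN2 and BTN3 groups, BTN3A1, BTN3A2 and BTN3A3 fell. BTN3A1 was at 48.4 and 43.96 CPM in the control cocultures, 29.9 and 33.8 CPM with hairpin 1 and 29.4 and 29.4 CPM with hairpin 2, and its call was lost without control coculture 1 or either hairpin 2 library.

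Some shared falls were next to each other among tested genes in RefSeq order, several of them members of 1 gene family. How often neighbours share a call by chance was not tested. Runs of at least 3 were GBP3, GBP1 and GBP4 on chromosome 1, PTGS2, PLA2G4A and RGS2 also on chromosome 1, HERC6 and HERC5 with PPM1K on chromosome 4, CSF2, P4HA2 and PDLIM4 on chromosome 5, IFIT3, IFIT1 and IFIT5 on chromosome 10, and a run of 5 from PSMB8 through TAP1 and PSMB9 to HLA-DMB on chromosome 6. All members of the GBP, HERC and IFIT runs kept their calls in every omission. In the run on chromosome 6 TAP1 did, while PSMB8, PSMB9 and HLA-DMB lost theirs without control coculture 2 or hairpin 2 library 2. CSF2, P4HA2 and PDLIM4 each lost theirs without either control coculture or either hairpin 2 library. The run of PTGS2, the inducible cyclooxygenase, and PLA2G4A, which frees its substrate, was shallow: PTGS2 fell by 1.75-fold and 1.43-fold, PLA2G4A by 2.35-fold and 1.67-fold, and RGS2 by 1.69-fold and 1.32-fold, each lost without either control coculture or either hairpin 2 library.

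CTD-2328D6.1, a clone-named gene not called with either hairpin, differed between libraries of 1 group. It was at 2.98 and 1.10 CPM in the control cocultures, 1.64 and 57.9 CPM in hairpin 1 library 1 and 2, and 66.1 and 58.4 CPM with hairpin 2.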
